A study of Mus musculus with 4 samples.

Results

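The genes described here are 9 that guide T cells into lymph nodes, hold them on vessel walls or let them leave, together with the gene overlapping their exons on the opposite DNA strand. The 9 genes are Ccr7, S1pr1, Klf2, Cd44, Itgal, Itgb7, Itga4, Cxcr4 and Selplg, and were taken by name. An opposite-strand gene with overlapping exons was found for 1 of them, which is Cerkl opposite to Itga4, so the set held 10 of the 50600 genes of the tables. RNA was sequenced from primary cells of C57BL/6NJ mice labelled T-helper 2 cells, in 4 libraries of 1 group, biological replicates 1 to 4, which share 1 donor identifier. The paths in the file headers carry the time 0 hr, and age and sex are not given. Nothing says that the cells came from separate animals, so the p-values measure the spread between these 4 samples, which may be technical.

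A T cell enters a lymph node across specialised venules in steps. It rolls on selectins and their sugar-bearing ligands, meets chemokines that act through receptors such as Ccr7, and stops when its integrins grip molecules on the vessel wall. It leaves again along a gradient of sphingosine 1-phosphate, a lipid of blood and lymph that is sensed by S1pr1. Klf2 is a zinc-finger transcription factor of resting T cells that switches on S1pr1, which ties entry and exit to the resting state.

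The libraries held between 1452053 and 2351916 counts, so that 3 counts, the limit a count of 0 allows, came to between 1.28 and 2.07 CPM, the count scaled to library size, and cover counting error only. Levels between genes are given as TPM, the count per exon length scaled to the same sum in each library. Of 12 T cell markers, 12 reached a mean of 1 TPM, and of 9 Th2 markers 4 did, with Gata3, which has an opposite gene of its own, Gm13256, at 5.87 ± 2.08 TPM, Il4 at 7.96 ± 5.76 TPM and Il5 and Il13 at 0 counts in each library (SD, n = 4). Among markers of other cells, 2 of 7 for CD8 and NK cells, 2 of 6 for B cells, 3 of 9 for macrophages and granulocytes, 3 of 6 for erythroid and mast cells and 0 of 8 for endothelial and stromal cells reached it. Their summed levels ranged from 0.469 to 6.63 TPM for CD8 and NK cells, 57.0 to 65.4 TPM for B cells, 119.1 to 136.0 TPM for macrophages and granulocytes, 44.7 to 87.3 TPM for erythroid and mast cells and 0 to 0.443 TPM for endothelial and stromal cells. The highest were Csf1r, which overlaps exons of Hmgxb3, at 107.0 TPM, Cpa3 at 42.4 TPM and Cd79a at 39.0 TPM, while Lyz2, S100a8 and Col1a1 were at 0. Their part in the levels below was not tested.

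All counts refer to fragments on the annotated strand of a gene. Across the series the gene on the other strand was called the denser in 59.3% of all pairs tested. Among pairs of 2 protein-coding genes this share was 44.2%, as given below. A count was therefore not read as the level of the gene's transcript. The sources used here do not say which strand the reads of the library kit carry, so whether strand setting 1 of the counting matches the kit is not known. If it does not, fragments of a gene's own transcript would be missing from its count, and those of a transcript on the other strand could stand in it. Every level, order and detection below, in CPM or TPM, is therefore a density of fragments assigned to the annotated strand. The cause of the difference between the strands was not tested.

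On its own strand Itga4 was far below Cerkl in every library. Itga4 encodes the alpha-4 integrin chain, which pairs with the beta-1 chain to bind Vcam1 and with the beta-7 chain Itgb7 to bind Madcam1 on gut vessels. Cerkl encodes a protein related to ceramide kinase, known from humans as a gene mutated in inherited retinal degeneration. Itga4 had 216, 288, 222 and 145 counts in replicates 1 to 4, against 6283, 5663, 5469 and 3741 counts for Cerkl. No library of Itga4 came near any library of Cerkl, and Cerkl stood at rank 39 of all 50600 genes by summed counts, with Itga4 at rank 1350.

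Itga4 (ENSMUSG00000027009.18) lies on the plus strand of mm10 chromosome 2, from 79255426 to 79333123, with 13978 bases of exon. Cerkl (ENSMUSG00000075256.9) lies on the minus strand, from 79330543 to 79456785, with 5284 bases of exon. The genes meet tail to tail and share 1124 bases, which are 8.04% of the exon length of Itga4 and 21.3% of that of Cerkl. The shared bases form 2 segments, 79330543 to 79330761 and 79331752 to 79332656. Both fall in exon 28 of Itga4, its last, within the 3′ untranslated region of 6511 bases that ends the transcript, of which they cover 17.3%. The deposited tables give 1 count per gene, so how many of the Cerkl fragments fell in the shared segments is not known.

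**Figure D1:**
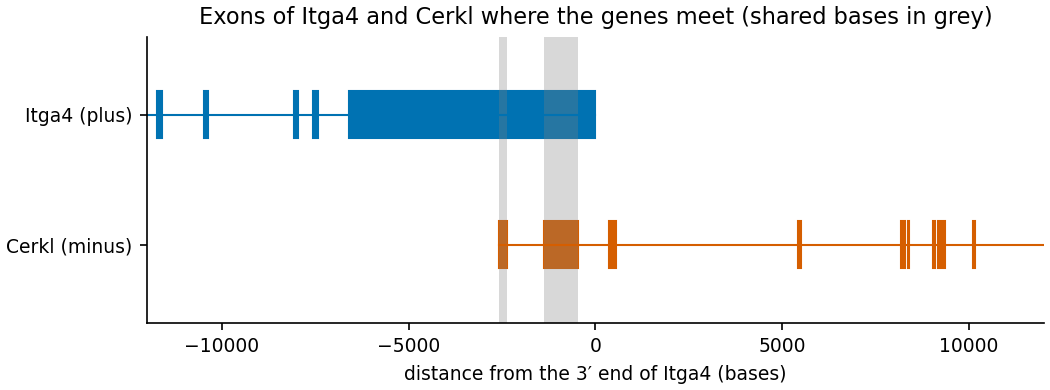
Map of the merged exons of Itga4 (upper row, plus strand) and Cerkl (lower row, minus strand) by distance in bases from the 3′ end of Itga4. Boxes are exons, lines introns, and the grey bands the 1124 shared bases, which lie in the last exon of Itga4; both genes continue beyond the edges.

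Per length the difference was larger than the spread between libraries. Itga4 had 7.25, 8.76, 8.26 and 7.14 CPM per kb of exon, against 557.9, 455.7, 538.2 and 487.6 CPM per kb for Cerkl. The log2 ratio of Itga4 to Cerkl was -6.27, -5.70, -6.03 and -6.09 in replicates 1 to 4, a mean of -6.02 ± 0.24 (SD, n = 4). In edgeR's quasi-likelihood test over all pairs of a protein-coding gene and its opposite gene, the log2 ratio was -6.02, a density 64.8-fold lower, with a Benjamini-Hochberg adjusted p = 1.26e-14. Of the 1 member with an opposite gene, 1 was therefore called lower than it and 0 denser. Among all 3589 pairs tested, 59.3% were called lower and 29.1% denser, and the median log2 ratio was -2.47. Among the 2115 pairs of 2 protein-coding genes, 44.2% were called lower and 41.9% denser. Calls in both directions were thus common. A pair of 2 protein-coding genes can enter from each side, lower from 1 side and denser from the other. The near balance among these pairs is therefore partly built in and cannot show whether the direction for Itga4 is usual. Among all pairs tested, a call of lower was the more frequent.

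**Figure D2:**
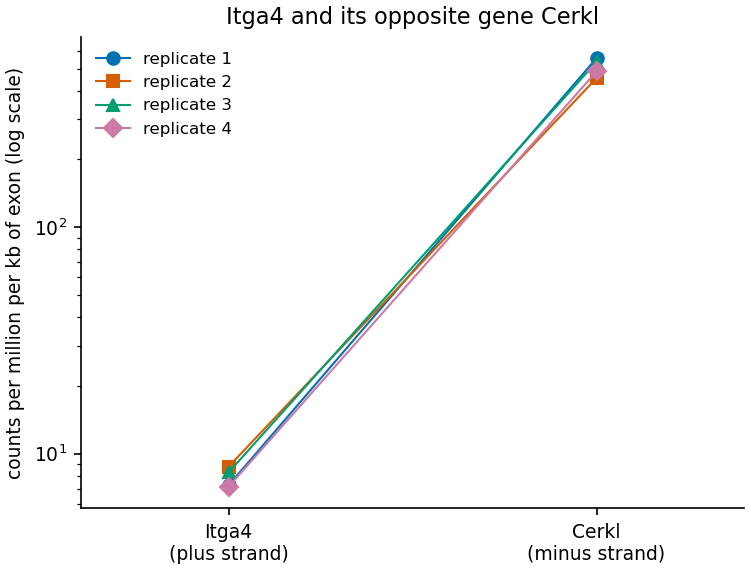
CPM per kb of exon (log scale) of Itga4 and of its opposite gene Cerkl; each line joins the values of 1 library. Itga4 lay between 7.14 and 8.76 and Cerkl between 455.7 and 557.9, with no overlap.

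The same 4 libraries ordered Itga4 and Cerkl differently. Itga4 made up 3.32%, 4.84%, 3.90% and 3.73% of the counts of the pair in replicates 1 to 4. Replicate 2 had the highest Itga4 level, 13.9 TPM, and the lowest Cerkl level, 722 TPM. The range of Cerkl, 722 to 828 TPM, was narrow, with a coefficient of variation of 6.35%, against 12.3% for Itga4. These values include counting error, which weighs more on Itga4, with 871 counts in all against 21156 for Cerkl. Relative to edgeR's trend over all genes tested, the dispersions were close, 0.368 times for Cerkl and 0.407 times for Itga4.

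The other 8 genes share no exonic base with a gene of the opposite strand, so for them no opposite count exists in the tables. Ccr7, Klf2, Itgal and Cxcr4 have no opposite-strand gene within 5 kb. S1pr1, Itgb7 and Selplg have an opposite neighbour within that distance, and Cd44 has the small nuclear RNA gene Gm23731 in an intron.

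Of the 2 chemokine receptors, Ccr7 was the higher. Ccr7 is the receptor for Ccl19 and Ccl21, which draws naive T cells into lymph nodes (ENSMUSG00000037944.8, chromosome 11, 99144196 to 99155077, minus strand). It had 68, 115, 84 and 65 counts, or 23.9, 39.1, 32.5 and 34.3 TPM in replicates 1 to 4, a mean of 32.5 ± 6.35 TPM (SD, n = 4). Replicate 2 was highest and replicate 1 lowest. Cxcr4 is the receptor for Cxcl12, which keeps cells in bone marrow and also helps entry into lymph nodes (ENSMUSG00000045382.6, chromosome 1, 128588199 to 128592293, minus strand). It had 5, 6, 25 and 7 counts, or 1.92, 2.23, 10.6 and 4.04 TPM, a mean of 4.70 ± 4.04 TPM. Replicate 3 held more Cxcr4 counts than the other 3 libraries together, and without it the mean was 2.73 TPM. Ccr7 exceeded Cxcr4 in 4 of 4 libraries, by a log2 ratio of 3.08 ± 1.06 (SD, n = 4) with 0.1 TPM added.

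The exit genes S1pr1 and Klf2 were both detected in every library. S1pr1, the sphingosine 1-phosphate receptor that draws T cells into lymph (ENSMUSG00000045092.8, chromosome 3, 115710433 to 115715072, minus strand), had 82, 147, 92 and 69 counts. Its level was 18.7, 32.5, 23.1 and 23.6 TPM, a mean of 24.5 ± 5.77 TPM (SD, n = 4), with replicate 2 highest and replicate 1 lowest. Its head-to-head neighbour Gm9889, a long non-coding RNA gene whose annotated span is separated from that of S1pr1 by 77 bases, had 68, 76, 72 and 55 counts, or 33.4 ± 2.81 TPM. Gm9889 exceeded S1pr1 in mean TPM and varied less between libraries. The direction depends on exon length, 1579 bases for Gm9889 and 3046 for S1pr1, since S1pr1 had more counts in every library.

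Klf2 (ENSMUSG00000055148.7, chromosome 8, 72319033 to 72321656, plus strand) had 37, 64, 33 and 22 counts. Its level was 13.9, 23.3, 13.7 and 12.4 TPM, a mean of 15.8 ± 5.03 TPM (SD, n = 4). Replicate 2 stood above the others, which lay close together. Klf2 was lower than its target gene S1pr1 in 4 of 4 libraries, by a log2 ratio of -0.64 ± 0.24 (SD, n = 4), or -1.36 as CPM scaled by edgeR's TMM factors and not divided by length. Transcription of Klf2 is known to be driven by Mef2 factors downstream of the kinase Mapk7. The promoter below is shown because it holds 1 match to the Mef2 consensus, which was searched for on both strands after the sequence had been read. The sequence comes from the RefSeq table on GRCm38.p6, plus strand, chr8:72318812-72319111, and runs from 250 bases before to 50 after the RefSeq start. Capitals mark the Mef2 match, which begins 118 bases before the start, and GGGTG, the reverse complement of CACCC, which begins 19 bases before it and does not overlap the first.
Klf2: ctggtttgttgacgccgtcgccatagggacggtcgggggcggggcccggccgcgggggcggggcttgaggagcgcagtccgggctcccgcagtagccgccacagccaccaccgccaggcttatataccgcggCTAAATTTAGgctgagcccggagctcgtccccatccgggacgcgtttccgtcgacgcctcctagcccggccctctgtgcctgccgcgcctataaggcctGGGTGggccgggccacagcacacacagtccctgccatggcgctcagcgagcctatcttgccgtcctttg
The Mef2 consensus occurred in 183 of 32817 RefSeq promoters of that length, or 0.558%, and in 1 of the 5 homing gene promoters at hand. A match of letters is a description and not a site of binding.

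The egress receptor also exceeded Cd69, whose protein binds S1pr1 and removes it from the cell surface after activation. Cd69 had 6, 45, 18 and 0 counts in replicates 1 to 4, or 1.85 ± 2.07 TPM (SD, n = 4). The log2 ratio of S1pr1 to Cd69 was 4.67, 2.78, 3.39 and 7.89, positive in 4 of 4 libraries, with a mean of 4.68 ± 2.28 (SD, n = 4). The size rested on replicate 4, in which Cd69 had no count and the 0.1 TPM added set the value. Without that library the mean was 3.61, and with 1 or 0.01 TPM added to all 4 libraries it was 3.43 or 5.57.

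Of the 3 integrin chains among the 9 genes, Itgb7 was the highest per length and Itgal the lowest. Itgb7, the beta-7 chain of the gut-homing integrin (ENSMUSG00000001281.9, chromosome 15, 102215995 to 102231935, minus strand), had 66, 94, 101 and 52 counts. Its level was 16.7, 23.1, 28.2 and 19.8 TPM, a mean of 22.0 ± 4.91 TPM (SD, n = 4), with replicate 3 highest. Its tail-to-tail neighbour Zfp740, 388 bases away on the plus strand, had 451, 406, 461 and 243 counts, or 61.9 ± 9.19 TPM. Zfp740, a zinc-finger gene, was higher than Itgb7 in mean TPM.

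Itga4, the partner chain of Itgb7, had 10.8, 13.9, 12.2 and 10.8 TPM, a mean of 11.9 ± 1.47 TPM (SD, n = 4), and was the second least variable of the 9 genes. Itgb7 exceeded Itga4 per length in 4 of 4 libraries, by a log2 ratio of 0.86 ± 0.25 (SD, n = 4). The direction depends on exon length, since Itga4 is annotated with 13978 bases and Itgb7 with 2743. As CPM scaled by edgeR's TMM factors and not divided by length, the log2 ratio was -1.48.

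The promoters of these 2 partner chains are shown because both hold the letters CACCC or GGGTG, the core bound by Klf factors, 4 times in 300 bases. They come from the RefSeq table on GRCm38.p6, Itgb7 on the minus strand at chr15:102231886-102232185 and Itga4 on the plus strand at chr2:79255176-79255475, and capitals mark the matches.
Itgb7: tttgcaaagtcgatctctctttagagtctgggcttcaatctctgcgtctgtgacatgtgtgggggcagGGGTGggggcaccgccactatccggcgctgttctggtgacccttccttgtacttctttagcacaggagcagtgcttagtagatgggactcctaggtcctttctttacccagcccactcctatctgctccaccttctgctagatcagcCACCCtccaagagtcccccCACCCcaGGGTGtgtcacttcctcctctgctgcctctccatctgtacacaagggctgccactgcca
Itga4: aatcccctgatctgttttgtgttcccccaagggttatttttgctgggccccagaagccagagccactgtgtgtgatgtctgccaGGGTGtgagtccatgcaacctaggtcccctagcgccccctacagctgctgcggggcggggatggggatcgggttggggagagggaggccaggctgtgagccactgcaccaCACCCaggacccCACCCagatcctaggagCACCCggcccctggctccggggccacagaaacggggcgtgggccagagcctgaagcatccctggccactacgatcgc
RefSeq promoters were matched for 5 of the 9 genes, and 4 of the 5 held CACCC on either strand, against 57.5% of all 32817 promoters. The letters were thus common in the background too. That share counts promoters with any match, and how many promoters hold 4 was not determined. The Foxo letters GTAAACA, searched on both strands because Foxo1 acts upstream of Klf2, were in 0 of the 5 and in 3.65% of all promoters.

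Itgal, the alpha chain of LFA-1, which binds Icam1 and Icam2 on the vessel wall (ENSMUSG00000030830.18, chromosome 7, 127296260 to 127335138, plus strand), had 51, 96, 55 and 24 counts. Its level was 5.40, 9.84, 6.42 and 3.81 TPM, a mean of 6.37 ± 2.55 TPM (SD, n = 4). Replicate 2 was highest and replicate 4 lowest. Its partner chain Itgb2 had 52, 97, 70 and 36 counts, or 15.8 ± 4.56 TPM. Itgal was lower than Itgb2 in 4 of 4 libraries, by a log2 ratio of -1.33 ± 0.27 (SD, n = 4). As raw counts the pair lay close together in replicates 1 and 2, and as TMM-scaled CPM, not divided by length, the log2 ratio was -0.24.

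**Figure D3:**
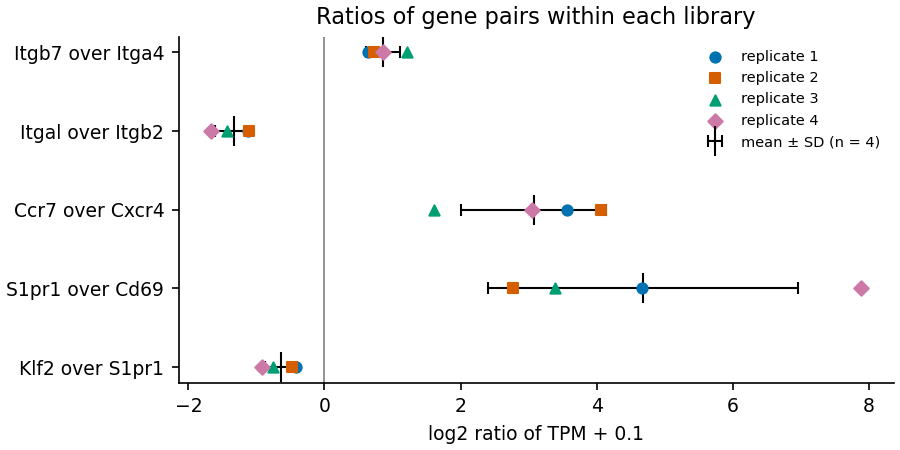
Log2 ratios of TPM + 0.1 for 5 gene pairs; points are libraries and bars the mean ± SD (n = 4). Each ratio has the same sign in all 4 libraries, and S1pr1 over Cd69 spreads most, from 2.78 to 7.89.

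Of the 2 adhesion molecules outside the integrins, Selplg was the second highest of the 9 genes and Cd44 the lowest. Selplg, or PSGL-1, carries the sugars that selectins bind (ENSMUSG00000048163.13, chromosome 5, 113818536 to 113832644, minus strand). It had 159, 210, 159 and 123 counts, or 25.9, 33.1, 28.5 and 30.0 TPM, a mean of 29.4 ± 3.00 TPM (SD, n = 4), the smallest coefficient of variation of the 9 genes at 10.2%. The pseudogene Gm19931, 943 bases beyond its 3′ end on the other strand, had 1, 0, 2 and 8 counts. Cd44, a receptor for hyaluronan that is raised on activated and memory T cells (ENSMUSG00000005087.17, chromosome 2, 102811141 to 102901665, minus strand), had 4, 16, 2 and 0 counts. Its level was 0.411, 1.59, 0.226 and 0 TPM, and the 0 in replicate 4 allows up to 0.462 TPM. Replicate 2 held 16 of its 22 counts, and the mean of 0.557 ± 0.709 TPM (SD, n = 4) became 0.212 TPM without it. Gm23731 in an intron of Cd44 had no count.

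Of the 9 genes, 8 reached a mean of 1 TPM, against 34.0% of 21764 protein-coding genes, with Cd44 below it. The median over the 9 was 15.8 TPM, against 0.144 TPM over all protein-coding genes. Among the 16963 protein-coding genes free of an opposite exon overlap, the 8 homing genes without one stood between the percentiles 66.5 for Cd44 and 98.7 for Ccr7. The 9 genes were chosen with these levels known, so the counts describe them and test nothing.

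In order of mean TPM the genes ran Ccr7, Selplg, S1pr1, Itgb7, Klf2, Itga4, Itgal, Cxcr4 and Cd44. Of the 8 pairs of neighbours, 4 kept their order in all 4 libraries, namely Selplg over S1pr1, Klf2 over Itga4, Itga4 over Itgal and Cxcr4 over Cd44. The largest of these steps were Cxcr4 over Cd44 at a log2 ratio of 3.21 ± 2.38 and Itga4 over Itgal at 0.97 ± 0.41 (SD, n = 4). Ccr7 and Selplg, S1pr1 and Itgb7, Itgb7 and Klf2, and Itgal and Cxcr4 changed places in at least 1 library. Ccr7 over Selplg was 0.13 ± 0.16 and Itgal over Cxcr4 was 0.68 ± 1.30, both smaller than their SD. No neighbour test could pass 0.05, since 4 libraries allow an exact two-sided sign-flip permutation p of 0.125 at the least, and the adjusted p over the 8 pairs ran from 0.25 to 0.5. The 5 ratios given above each had p = 0.125 by the same exact permutation, adjusted p = 0.125.

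**Figure D4:**
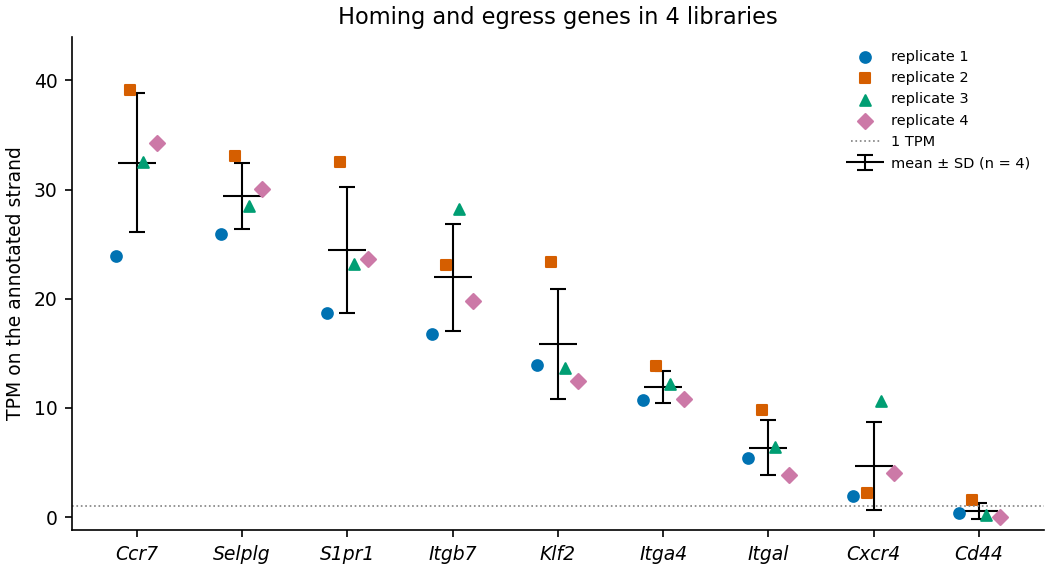
TPM on the annotated strand of the 9 genes in order of their mean; points are the 4 libraries, bars the mean ± SD, the dotted line 1 TPM. The ranges of Ccr7, Selplg, S1pr1 and Itgb7 overlap each other and together span 16.7 to 39.1 TPM. Cd44 exceeds 1 TPM in replicate 2 only.

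Replicate 2 held the highest CPM of 7 of the 9 genes and replicate 3 that of Itgb7 and Cxcr4. Summed over the 8 genes without exon overlap, the level was 221, 318, 287 and 249 CPM in replicates 1 to 4. All protein-coding genes without exon overlap moved with it, at 86279, 105898, 99367 and 86285 CPM, of which the 8 genes made up 0.257%, 0.300%, 0.288% and 0.289%. The summed T cell markers ran in the same order of libraries, at 444, 629, 551 and 492 TPM in replicates 1 to 4. The largest part of that sum was Cd247, which overlaps exons of Pou2f1, at a mean of 173.8 TPM. Cd247 was highest in replicate 3, at 216.3 TPM, and lowest in replicate 4, at 141.7 TPM. Without Cd247 the sum of replicate 4 exceeds that of replicate 3, so the shared order rests on this gene. The part of the coding genes or of the T cell markers in the levels of the homing genes was not tested. In bulk RNA, fewer cells of a type and less RNA per cell cannot be told apart.

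No homing gene was called more variable between libraries than the trend, which for so few genes is near the share over all genes. With edgeR's quasi-dispersions over 5755 genes, 0 of the 7 homing genes that passed the filter on low counts were more variable than the trend at a Benjamini-Hochberg adjusted p of 0.05, and 0 at an unadjusted p of 0.05, against backgrounds of 0.278% and 4.95%. Itgal had the largest dispersion, 1.54 times the trend (edgeR, adjusted p = 0.995), and Selplg the smallest at 0.354 times. Cxcr4 and Cd44 did not pass the filter. Fitted without it, they had 1.70 and 2.00 times the trend (edgeR, adjusted p = 0.919 each). The test was weak at this number of libraries, since in simulated counts it found 29.0% of 200 genes with a dispersion of 1.5 among genes with 0.03.

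The wider pathway was read from 9 lists holding 112 further genes, of which 68 reached a mean of 1 TPM and 23 had no count. All 16 genes of integrin activation and 18 of 20 genes of Gi coupling and motility reached it, against 0 of 7 homing chemokines. Of the 15 chemokine receptors, Ccr7 and Cxcr4 counted, 7 did, including Gpr183, a receptor for oxysterols that positions cells in the node and lies within the span of Ubac2, at 47.8 ± 5.45 TPM, while Ackr3 had no count. Among the 13 genes of selectins and their ligands, Selplg and Cd44 counted, 7 reached it, and Fut4, which helps to build the sugars that selectins bind, had no count. Coro1a and Arhgef1, which act in cell motility, had 63.2 ± 20.2 and 44.4 ± 12.7 TPM, and Rgs1, a brake on receptor signalling, 0.257 ± 0.242 TPM (SD, n = 4). Among endothelial counter-receptors Sele and Pecam1 had 27.6 ± 7.79 and 7.73 ± 2.15 TPM, and Cd34, Vcam1, Madcam1 and Glycam1 had no count.

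Where genes of the pathway had an opposite gene, most were below it, like Itga4. Of 29 further pairs tested, 23 were called lower and 5 denser in the edgeR test at an adjusted p of 0.05, beside 59.3% lower and 29.1% denser among all pairs, with a median log2 ratio of -3.06 against -2.47 over all pairs, and Selp was in neither set (adjusted p = 0.114). In the list of Klf2 relatives and upstream regulators 6 of 6 pairs were lower, in integrin activation 7 of 8, and in Gi coupling and motility 4 of 4, each beside the 59.3% of all pairs and none of them tested as a list. Some of these calls rested on the division by exon length. Without it, Wwp1 stood at a log2 ratio of 0.47 (edgeR adjusted p = 0.357), Tln1 at -0.05 (adjusted p = 0.790) and Dock2 at 2.70. The 2 pairs among chemokine receptors, Cxcr5 with Bcl9l and Ccr9 with AC165425.1, were denser, at log2 ratios of 2.19 ± 0.73 and 1.64 ± 0.99 (SD, n = 4).

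Within each list the ratios differed widely. In integrin activation they ran from -9.50 for Rapgef1 to -2.10 for Tln1 and 2.55 for Vcl, and among the relatives and regulators of Klf2 from -9.05 for Foxo1 to -3.06 for Wwp1. Foxo1, which activates Klf2, had 25, 88, 22 and 42 counts, against 1859, 2232, 1598 and 1263 counts for Gm20402, a log2 ratio per length of -9.05 ± 0.81 (SD, n = 4; edgeR adjusted p = 6.46e-14). Mef2d, a Mef2 factor, had 81, 138, 110 and 68 counts, against 771, 950, 909 and 463 for 1700113A16Rik, at -5.41 ± 0.23 (edgeR adjusted p = 6.26e-13). Both were below their opposite gene in every library. Fyb, an adaptor that links the T cell receptor to integrins, had 266, 359, 242 and 161 counts, against 6446, 5742, 6005 and 4094 for Gm2245, at -5.09 ± 0.32. Rhoa, a GTPase of cell movement, had the most negative ratio per length of the pathway, -9.95 ± 0.45 relative to Gm37401, and -5.52 without division by length, where Icam1, Skap1 and Klf7 were lower, with opposite counts of 1180 ± 143 CPM. Itga4, at -6.02, lay within this range, and the difference between it and these pairs was not tested.

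Pairs in the other direction were led by a kinase and a linker protein. Sphk2, which makes sphingosine 1-phosphate, had 606, 513, 366 and 268 counts, against 50, 36, 43 and 31 for Dbp, at a log2 ratio of 2.94 ± 0.37 (SD, n = 4; edgeR adjusted p = 2.52e-09). Vcl, or vinculin, which ties adhesion sites to actin, had 392, 349, 370 and 326 counts, against 75, 86, 104 and 66 for Ap3m1, at 2.55 ± 0.25 (edgeR adjusted p = 7.05e-09). In both pairs the gene was above its opposite gene in every library.

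**Figure D5:**
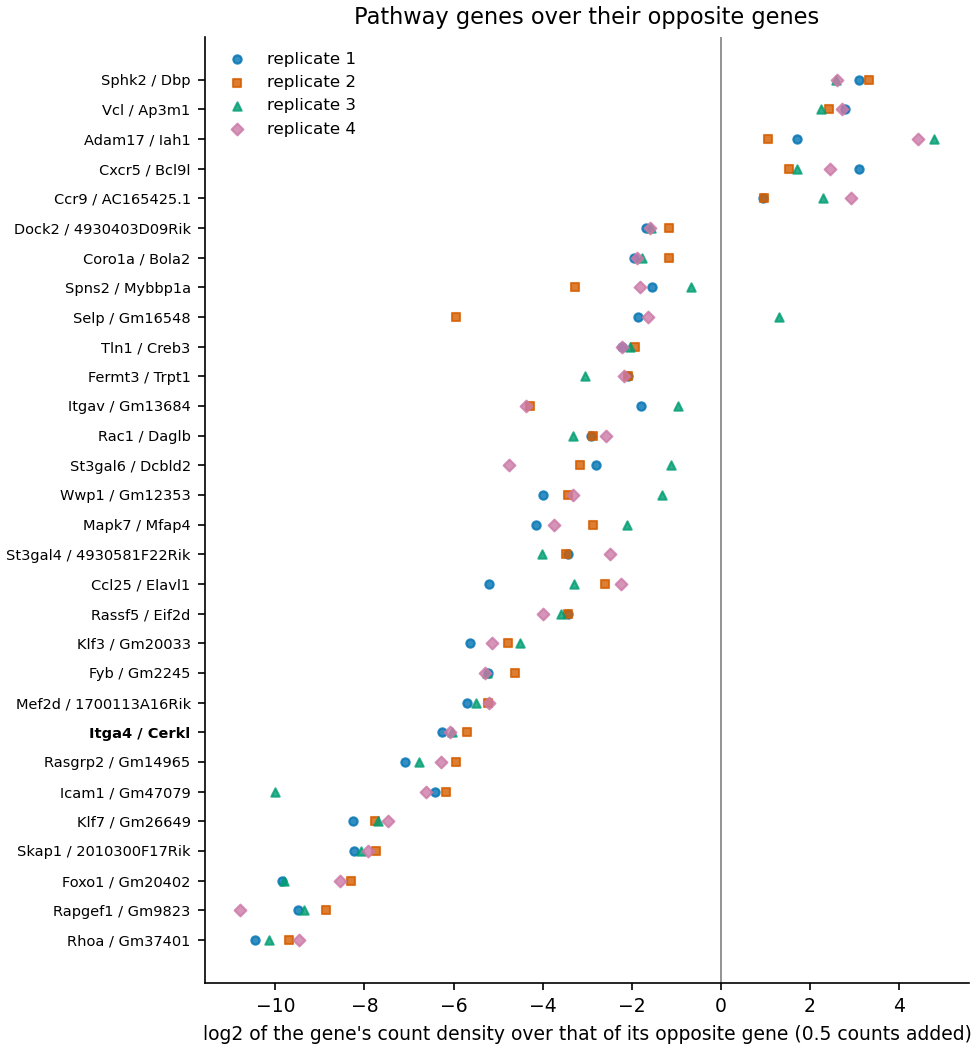
Log2 ratio of the count density of each pathway gene to that of its opposite gene (0.5 counts added) for the 30 pairs tested, Itga4 in bold; points are the 4 libraries. The ratios of Itga4 lie between -6.26 and -5.70, and 5 genes, Sphk2, Vcl, Adam17, Cxcr5 and Ccr9, lie above 0 in every library.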

How the data were processed

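Each library came as 1 table of raw counts, deposited by the authors without normalization. The counts were made by featureCounts 1.4.6-p4 from STAR alignments to mm10, per the file headers, summing fragments with both ends aligned over the exons of GENCODE mouse release 13 under strand setting 1. Exon lengths come from the same deposited tables. For the kit and for trimming the sources used here name nothing.

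From these counts, CPM used library totals and TPM exon lengths. Symbols were matched for 50376 of 50600 genes, and gene types, exon numbers and untranslated regions came from GENCODE mouse release 21. Exon overlaps were found with bedtools 2.31.1, and the opposite gene was the one with the largest overlap, of at least 1 base. Pairs with at least 20 counts were tested with edgeR 4.0.16 in R 4.3.3, with the library as a factor and library total times exon length as offset. In simulated pairs, 89.4% of 198 with a 4-fold difference were found among 3565, and 3.80% of the calls were false. The simulation used a dispersion of 0.05 and equal densities in the other pairs. Most real pairs were called, so these shares do not carry over to them. SDs of pair ratios other than Itga4 over Cerkl used 0.5 added counts. Spread used filterByExpr, TMM and an upper-tail F test of the quasi-dispersion. Alternatives included DESeq2 1.42.0. The 5 ratios and the order used 0.1 added TPM and exact sign-flip permutations, with 2 of 16 patterns the most extreme.

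The members, lists and tests were chosen with earlier results of these data known. In each pathway list, genes named were the 2 highest and the lowest by TPM and the 2 with the highest opposite CPM, besides all members, the genes of the ratios and defining markers. Some genes that this rule picks are not reported here. Vcam1, Madcam1, Glycam1, Adam17, Dock2, Wwp1, Tln1, Rapgef1, Lyz2, S100a8, Col1a1 and the near neighbours were named after their values were seen.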

Additional observations from a re-analysis of the deposited data

Results flagged for a closer look

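In 3 of the 54 sets of 4 library values examined, 1 library stood apart from the other 3 by Dixon's criterion, and chance gives that in about 1 of 20 sets. Cd3e had 41.2 CPM in replicate 2, against 22.4 to 23.9 CPM in the other libraries. Icam1 had 0 CPM in replicate 3, against 1.88 to 2.13 CPM. Skap1 had 15.95 CPM in replicate 1, against 18.6 to 18.7 CPM. In CPM, no library of the 9 homing genes or of Cerkl was set apart in this way. In TPM, replicate 2 of Klf2 was, at 23.3 TPM against 12.4 to 13.9 TPM in the other libraries.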

How the results depend on the processing

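Itga4 remained below Cerkl in each of the 9 alternatives that could be fitted, at log2 ratios from -6.13 to -4.61, with -4.61 reached without division by length. With opposite genes restricted to those not protein-coding, Itga4 had none and gave no value. The pairs called denser and lower were then 1 and 13 in the pathway, against 5 and 24 in the main setting. Over all genes they were 213 and 1249, against 1043 and 2130. Fewer genes have such an opposite gene, and the balance of the calls also shifted towards lower. That setting leaves out the pairs of 2 protein-coding genes, which held 935 lower and 886 denser calls in the main setting. Their part in the shift was not tested. Without division by length, Dock2 over 4930403D09Rik became 2.70 and Wwp1 over Gm12353 0.47, Tln1 over Creb3 (-0.05, edgeR adjusted p = 0.790) and Itgav over Gm13684 (-0.58, adjusted p = 0.533) lost their calls, and the pathway held 20 lower and 6 denser pairs, against 24 and 5. Itgav also lost its call without replicate 2 (edgeR adjusted p = 0.0701). Selp over Gm16548, not called in the main setting, was called lower without the library term (edgeR adjusted p = 0.0324). It was also called lower without replicate 3 (edgeR adjusted p = 0.0488). As TMM-scaled CPM, Itgb7 over Itga4 became -1.48, and the order of the genes began with Itga4. The homing genes above the detection limit were 9 with a limit of 0.5 TPM, and 8 with 1 TPM. Without replicate 2 Cxcr4 stood above Itgal. The genes more variable than the trend numbered 7 to 10 with a library left out, against 16 with all 4, and 0 homing genes were among them. Of the alternatives for the 5 ratios, the TMM-scaled one given above was the only reversal. No paired analysis was possible because there is 1 group and so no groups to pair by replicate number. The ratios themselves were taken within libraries, and without the library term Itga4 over Cerkl was -6.02. At these depths 3 counts equal 1.12 to 1.73 TPM for Cxcr4, close to its level in replicates 1 and 2.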
